A study of Mus musculus with 22 samples.

Results

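The transmembrane mucins examined here are Muc1, Muc3, Muc4, Muc13 and Muc20, chosen by name as 5 of the 52636 genes in the deposited table, and all 5 had a row. RNA of mouse duodenal organoids, which are cultures of intestinal epithelium grown in gel from crypt stem cells, was sequenced as 22 libraries in 7 groups. The organoids came from adult wild-type mice of the outbred CD1 strain, with each organoid line made from 1 mouse, so that a group of 3 holds 3 mice. The untreated group held lines 1 to 4 (n = 4), and each treated group held lines 1, 2 and 4 (n = 3). Treatment was by cold atmospheric plasma (CAP), a helium plasma jet that makes reactive oxygen and nitrogen species in the medium. In direct CAP, the jet was applied to the culture at day 1 after replating, and the medium was replaced after 30 min or 24 h. By the study's scheme, RNA was analysed at day 3, so that 30 min and 24 h are times of exposure. Elsewhere the study calls 30 min an early time after treatment. All treated groups had the same moderate plasma dose. Indirect CAP was medium taken from another treated culture, and plasma-activated medium (PAM) was medium treated without organoids. Either medium stayed on the organoids for 24 h, starting at day 1 or at day 2. The labels differ here, and call the day 1 groups 30 min and the day 2 groups 24 h. By the study's scheme, the day 1 groups then had fresh medium until day 3, while exposure of the day 2 groups lasted until day 3. The media given at day 2 had been made at day 1. Lines 1 and 2 were at passage 12 and 14, and lines 3 and 4 at passage 4 by the labels. The cultures are epithelium alone, with no mesenchyme, mucus-dwelling bacteria or luminal flow.

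Transmembrane mucins are long, heavily O-glycosylated proteins that are anchored in the apical membrane by 1 membrane-spanning segment and stand out from it as part of the glycocalyx. In the small intestine they coat the microvilli of enterocytes, in contrast to gel-forming mucins such as Muc2, which goblet cells secrete. Most of them are cleaved in an extracellular domain, whose outer part can be shed, and their short cytoplasmic tails are bound by scaffold proteins or kinases.

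Values are reads per gene scaled by the authors to 20 M per library, without division by gene length unless stated. The study's legends give a unit per kilobase of transcript, and levels per kb below rest on the deposited values not being divided so. Library totals ran from 20007540 to 20016513, and the reads behind them, estimated from the spacing of low values, ran from 19.38 to 28.68 M (median 22.55). A value near 10 thus stood for a number of reads of the order of 10, which varied with the depth of the library. Epithelial markers (Epcam, Cdh1, Krt8, Krt18, Vil1) summed to between 82211 and 145331 in every library. The summed markers of immune cells (19 to 99), fibroblasts (2 to 17) and endothelium (2 to 28) were near 0. The labels call the cells stem cells, but enterocyte markers summed to between 93951 and 244821, and stem cell markers (Lgr5, Olfm4, Smoc2, Ascl2) to between 650 and 33368. After removal of group means, treated libraries of the same line correlated with each other (median r = 0.564, 45 pairs), whereas untreated line 1 resembled treated line 2 (median r = 0.541, 6 pairs) more than treated line 1 (median r = 0.0751). Untreated line 2 likewise resembled treated line 1 (median r = 0.353) more than treated line 2 (median r = 0.132). The line labels of these untreated libraries are therefore in doubt, and results are also given without both. Group comparisons do not use the line, but the fits with the line as a block do. In bulk RNA, fewer cells of a type and less RNA per cell cannot be told apart.

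To show where the members begin, the 250 bases upstream of the transcript start were taken from RefSeq on GRCm38.p6, which has an entry for each of the 5 members, and are printed 5′ to 3′ for Muc3, which differed most between groups, for Muc13, the most abundant member, and for Muc1, the least abundant per kb of exon in untreated libraries. Capitals mark matches, on either strand, to AP-1 as TGANTCA, the antioxidant response element core as TGACNNNGC, the E-box as CACGTG, the STAT site as TTCNNNGAA, the GATA site as AGATAA, an HNF4A core as CAAAGTC, the TATA box as TATAAA, the GC box as GGGCGG, the CDX site as TTTATNG, the CACCC box as CACACCC, or the DR1 repeat, which is AGGTCA with a further AGGTC placed 1 base after it. The DR1 repeat was added after the Muc3 window had been read.
Muc3, chr5:137166047-137166296, minus strand: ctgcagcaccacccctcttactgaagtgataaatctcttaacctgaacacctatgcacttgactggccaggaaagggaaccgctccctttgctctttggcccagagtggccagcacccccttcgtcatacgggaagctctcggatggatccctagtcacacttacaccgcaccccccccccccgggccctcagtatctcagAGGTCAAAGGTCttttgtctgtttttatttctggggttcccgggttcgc
Muc13, chr16:33793787-33794036, plus strand: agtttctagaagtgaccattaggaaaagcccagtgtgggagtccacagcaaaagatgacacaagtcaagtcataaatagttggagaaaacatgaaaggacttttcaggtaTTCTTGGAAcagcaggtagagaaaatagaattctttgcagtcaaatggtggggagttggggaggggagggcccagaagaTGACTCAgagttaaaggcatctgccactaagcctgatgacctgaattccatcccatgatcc
Muc1, chr3:89228806-89229055, plus strand: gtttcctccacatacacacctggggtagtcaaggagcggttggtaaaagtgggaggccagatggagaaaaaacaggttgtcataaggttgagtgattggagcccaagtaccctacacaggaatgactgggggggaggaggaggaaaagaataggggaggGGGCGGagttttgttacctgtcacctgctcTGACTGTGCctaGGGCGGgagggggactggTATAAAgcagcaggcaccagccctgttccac
In the Muc3 window, the only match was the DR1 repeat, the letters of which are known as a binding site of nuclear receptors such as HNF4A. Of 32851 such windows, 25 held it (0.0761%), but since the pattern was searched for after the Muc3 window had been read, this share is no measure of how unusual the match is. In the Muc13 window shown the matches were STAT (held by 7.02% of windows) and AP-1 (6.75%). RefSeq has a further start of Muc13 downstream, whose window (chr16:33794239-33794488, not shown) held AP-1, the antioxidant response element core and the HNF4A core. In the Muc1 window they were GC boxes (32.7%), the antioxidant response element core (10.2%) and a TATA box (12.4%). No match overlapped another in these 3 windows. Letters that match a motif are a description, and binding was not measured.

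Muc3, a mucin of the enterocyte brush border, was the only member past the threshold given below in comparisons with untreated. Its gene model in GENCODE vM21 lies at chr5:137134922-137149322 on the minus strand of GRCm38, with 12 exon blocks and 1943 exon bases. In the untreated libraries of lines 1 to 4, Muc3 stood at 208, 201, 353 and 349 (278 ± 84.6, SD, n = 4). All 18 treated libraries lay above every untreated one. Between 11.6% of genes (direct CAP for 24 h) and 22.7% (indirect CAP from day 2) met this order in a single group, with 12.4% for direct CAP for 30 min, 16.7% for indirect CAP and 17.1% for PAM from day 1, and 20.7% for PAM from day 2. Taken over the 24 h groups from day 1 together, it was 7.16%. The share of all genes with all 18 treated libraries above every untreated one was not counted.

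In lines 1, 2 and 4, Muc3 stood at 423, 367 and 2388 after direct CAP for 30 min, and at 1377, 1529 and 1352 after direct CAP for 24 h (1419 ± 95.8). The 30 min group thus held 2 libraries just above the untreated range and 1 far above it. With indirect CAP, the values were 588, 776 and 1712 from day 1 (1025 ± 602) and 1927, 3362 and 2586 from day 2 (2625 ± 718). With PAM, they were 4343, 4152 and 3851 from day 1 (4115 ± 248) and 2404, 3700 and 6350 from day 2 (4151 ± 2011). By mean, untreated stood lowest, followed by the day 1 indirect CAP group, direct CAP for 30 min and direct CAP for 24 h. The day 2 indirect CAP group, the day 1 PAM group and the day 2 PAM group came next. The ranges of the first 3 treated groups overlapped, as did those of PAM from day 2 and both groups before it.

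**Figure D1:**
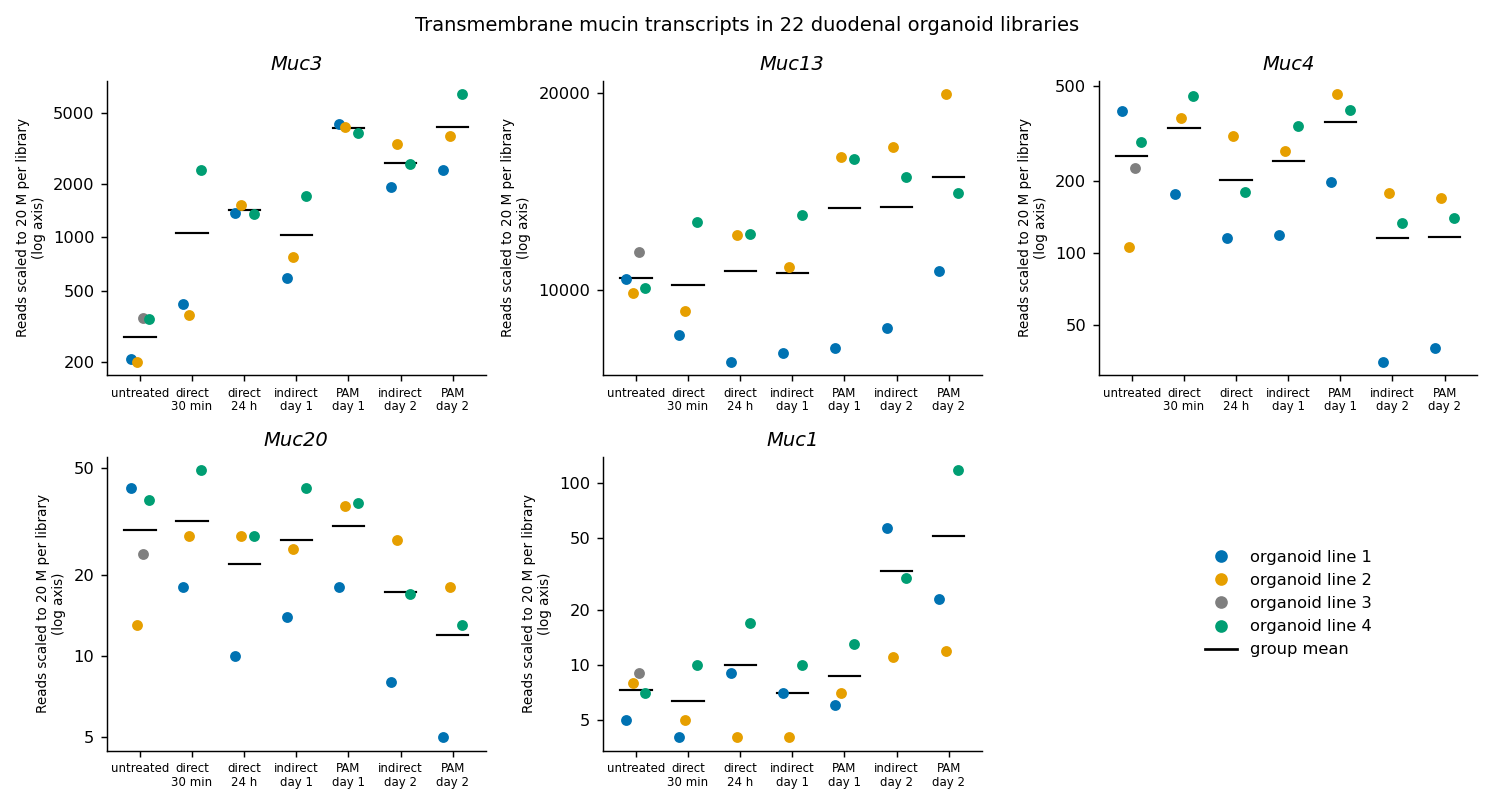
Values of Muc3, Muc13, Muc4, Muc20 and Muc1 (reads scaled to 20 M per library, log axis) in the untreated and 6 CAP groups, with 1 point per library coloured by organoid line and a bar at the group mean. All 18 treated libraries lie above the 4 untreated libraries for Muc3, and line 1 is the lowest treated library in each group for Muc4, Muc13 and Muc20. The share of all genes with either order was not counted.

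To set these values against the spread between lines, each group was compared with the untreated libraries by limma on log2(value + 1), fitted over all genes that passed a filter on low values. A gene was called past the threshold where its log2 fold change was 1 or more in size and its p, adjusted by Benjamini-Hochberg, lay below 0.01. The members were selected with results of these data known, so the fold changes, errors and adjusted p values below describe their size against the spread and are no independent evidence.

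Across the 9 libraries of the 24 h groups from day 1 (direct CAP, indirect CAP and PAM) vs the 4 untreated libraries, Muc3 rose by a log2 fold change of 2.70 (SE 0.48, limma adjusted p = 0.001239), and the ratio of the means was 7.87. It was the only member past the threshold (1 of 5), where 6.34% of the 18490 genes tested were past it. The log2 fold change was 2.32 without untreated lines 1 and 2, which ended the call (adjusted p = 0.043). Each treated line entered this fit 3 times, and the fit took libraries of the same mouse as independent. This limits its SE and p values here and for the other genes below.

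Group by group, Muc3 rose after direct CAP for 24 h (log2 fold change 2.40, SE 0.22, limma adjusted p = 0.001567), where 2.17% of genes were called. The call was lost without the treated library of line 1 (adjusted p = 0.0111) and without untreated lines 1 and 2 (adjusted p = 0.0202). Muc3 rose with PAM from day 1 (log2 fold change 3.93, SE 0.22, adjusted p = 4.269e-05, 10.2% of genes called), where it had rank 26 from the highest of 17357 genes. It also rose with indirect CAP from day 2 (log2 fold change 3.25, SE 0.26, adjusted p = 8.236e-05, 11.9% called) and with PAM from day 2 (log2 fold change 3.83, SE 0.35, adjusted p = 0.0003381, 17.3% called). Without untreated lines 1 and 2 the PAM call from day 2 was lost (adjusted p = 0.0126), while those of the day 1 PAM group (0.000247) and the day 2 indirect CAP group (0.00165) stayed past the threshold.

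For indirect CAP from day 1, the Muc3 log2 fold change of 1.78 (SE 0.37, limma adjusted p = 0.01597) did not pass, and 1.31% of genes did. With the line as a block it was 1.91 and passed (adjusted p = 0.00542), as did 1.81% of genes. That block relies on the labels of untreated lines 1 and 2, which are in doubt. For direct CAP for 30 min, the Muc3 log2 fold change was 1.42 (SE 0.60, adjusted p = 0.189), where 1 of 17731 genes was called (0.00564%). This value rested on the library of line 4, without which it was 0.55 (adjusted p = 0.349).

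**Figure D2:**
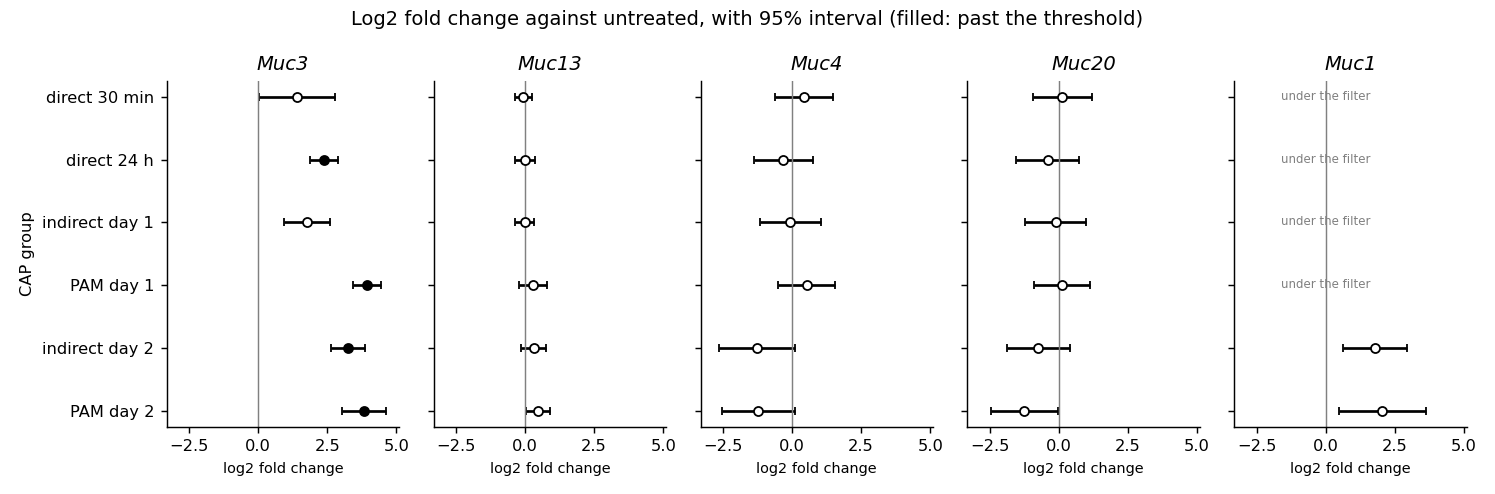
Log2 fold change of each member against untreated, on the log2(value + 1) scale, for the 6 CAP groups (points, with limma's 95% interval as bars, filled where past the threshold). Muc3 is filled in 4 of 6 groups, from 2.40 for direct CAP for 24 h to 3.93 for PAM from day 1, and no other member is filled.

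The treated groups were then compared with each other, at matched times of exposure where the design allowed it. Muc3 stood higher with PAM from day 1 than after direct CAP for 24 h in every library, by a log2 fold change of 1.54 (SE 0.11, 95% interval 1.29 to 1.79), which missed the threshold (limma adjusted p = 0.01625) and passed with the line as a block (0.00124). Of the 17072 genes, 5.68% lay above in every library. None was called in this comparison (0%), with 1773 at an unadjusted p under 0.05, and 58 were called with the block (0.34%). Against indirect CAP from day 1, PAM from day 1 was higher by 2.16 (SE 0.36, interval 1.31 to 3.0, adjusted p = 0.165), again with no overlap between the groups, an order met by 5.78% of genes. Indirect CAP from day 1 differed from direct CAP for 24 h by -0.62 (interval -1.44 to 0.19, adjusted p = 0.6288).

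Between start days, Muc3 was higher with indirect CAP from day 2 than from day 1 by a log2 fold change of 1.47 (SE 0.40, limma adjusted p = 0.09396), with no overlap, an order met by 12.1% of genes. Of all genes, 0.0111% were called. With the line as a block Muc3 passed the threshold (adjusted p = 0.00124), as did 3.46% of genes. With PAM, day 2 differed from day 1 by -0.10 (interval -0.86 to 0.66, adjusted p = 0.8698). The start day went together with the time since exposure ended and with the age of the medium. These cannot be told apart in any comparison of day 2 with day 1. PAM from day 2 differed from indirect CAP from day 2 by 0.58 (interval -0.29 to 1.46), and direct CAP for 24 h from 30 min by 0.98 (interval -0.51 to 2.46). These intervals hold differences of more than 1 log2 unit in 2 of 3 cases, so Muc3 was not shown to be alike in those groups.

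The groups in which Muc3 stood highest were also those in which the stem cell markers stood lowest. Their sum was 28399 to 33368 in untreated libraries, 770 to 1998 with PAM from day 1, 1951 to 2662 with indirect CAP from day 2 and 650 to 1925 with PAM from day 2. Of the 4 stem cell markers, 4 fell past the threshold in each of these 3 groups. Of all genes, 5.4%, 5.71% and 10.5% fell in the day 1 PAM, day 2 indirect CAP and day 2 PAM groups, and 4.83%, 6.2% and 6.82% rose. The enterocyte markers, in whose cells Muc3 protein is known, summed to 128473 to 151625 in untreated libraries and 93951 to 189258 with PAM from day 1. From day 2 they summed to 141568 to 166978 with indirect CAP and 192173 to 244821 with PAM. After direct CAP for 30 min, where Muc3 was not called, the sum was 164195 to 173694. By gene, 4, 2 and 3 of the 9 stood above untreated in the day 1 PAM, day 2 indirect CAP and day 2 PAM groups. The other 5, 7 and 6 stood below. Their median log2 fold changes were -0.11, -0.85 and -0.41, beside -0.13, -0.01 and -0.12 over all genes. In these groups 0, 1 and 1 of the 9 rose past the threshold, while 0, 2 and 0 fell. The part of stem cell or enterocyte markers in the Muc3 values was not tested.

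The deposited Muc3 row covers less than the gene as RefSeq draws it. RefSeq places the transcript start 16724 bases upstream of the GENCODE start, and most of the stretch between is taken by Gm3054 (chr5:137154029-137166070, minus strand), a model of 265 exon bases listed as a lincRNA that begins slightly upstream of the RefSeq start. Gm3054 had the profile most like that of Muc3 over the 22 libraries among 13196 genes with a mean of at least 50, with a mean absolute difference of 0.144 in centred log2(value + 1). The next were Oasl1 (0.383), an interferon-induced gene, and Gprin1 (0.391). Gm3054 stood at 11 to 27 in the untreated libraries (20.0 ± 7.07), 306 to 330 with PAM from day 1 (319 ± 12.2) and 175 to 509 with PAM from day 2 (326 ± 169). Its log2 fold change was 4.00 with PAM from day 1 (SE 0.29, limma adjusted p = 8.542e-05), beside 3.93 for Muc3. Whether both rows are parts of 1 transcript was not tested.

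Muc3a, named here after its values were seen, is a second model on the same strand (chr5:137208813-137212389) that GENCODE tags for an error of the reference genome. None of its 1788 windows of 100 bases occurs in Muc3. Muc3a did not follow Muc3. It stood at 106 ± 45.6 in untreated libraries, at 108 ± 67.1 with PAM from day 1 and at 37.7 ± 10.1 with PAM from day 2, where its 3 libraries lay below every untreated one, as in 32.6% of genes (log2 fold change -1.40, SE 0.36, limma adjusted p = 0.013, not past the threshold).

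**Figure D3:**
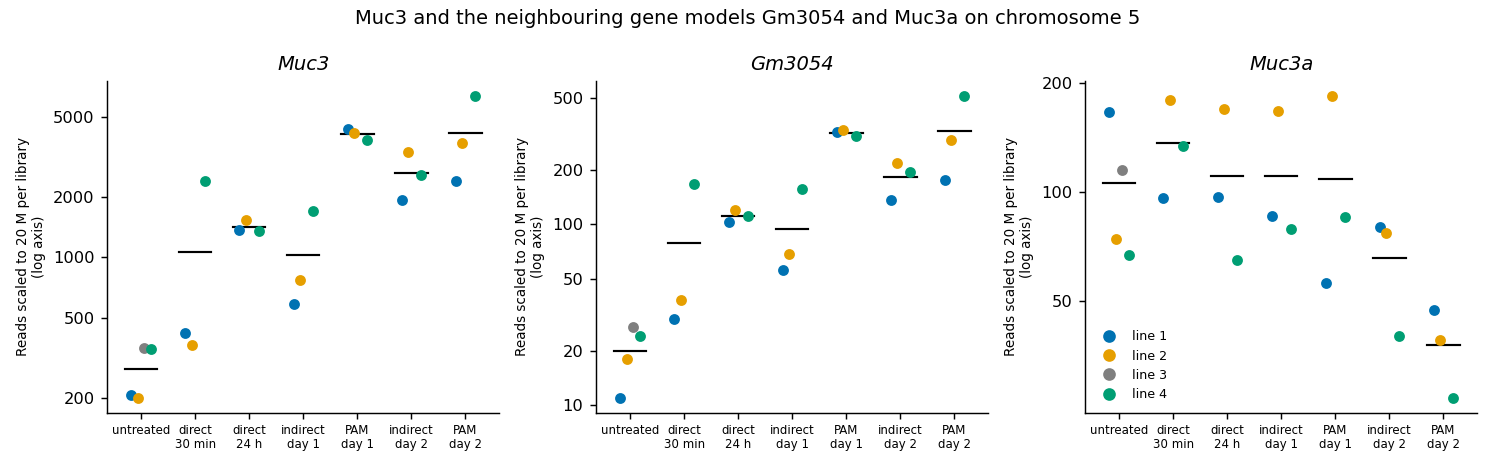
Values by library (reads scaled to 20 M, log axis) of Muc3, Gm3054 and Muc3a, in the same groups and line colours as above, with bars at group means. The treated libraries of Muc3 and Gm3054 lie above all untreated libraries, while those of Muc3a overlap them in every group but PAM from day 2. The share of all genes with the order of Muc3 and Gm3054 was not counted.

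Muc13, a small transmembrane mucin of the gut epithelium, was the most abundant member in all 22 libraries. Its gene lies at chr16:33794037-33819934 on the plus strand and shares 184 exon bases with the antisense gene Gm15657. Muc13 stood at 10409, 9887, 11422 and 10092 in untreated lines 1 to 4 (10452 ± 681). Per kb of exon, this was 3441 ± 224, compared with 143 ± 43.6 for Muc3, 21.7 ± 10.3 for Muc4, 7.26 ± 3.30 for Muc20 and 3.09 ± 0.73 for Muc1. As the Muc3 model is short, its level per kb rests on that model.

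In the treated groups, the mean of Muc13 ran from 10174 ± 2229 after direct CAP for 30 min to 14891 ± 4665 with PAM from day 2, and the range of each treated group overlapped the untreated range. With PAM from day 2, lines 1, 2 and 4 stood at 10687, 19909 and 14077. Muc13 was not past the threshold in any of the 14 comparisons. Its largest difference from untreated was that with PAM from day 2 (log2 fold change 0.47, SE 0.19, 95% interval 0.03 to 0.91, limma adjusted p = 0.07617). Leaving out treated line 2 gave 0.23, and leaving out treated line 1 gave 0.68. Across the 24 h groups from day 1 it was 0.10 (interval -0.31 to 0.50).

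The make-up of the 5 mucins shifted accordingly. Per kb of exon, Muc13 made up 95.2 ± 1.14% of the summed values in untreated libraries and Muc3 3.93 ± 1.06%. Muc3 made up 11.8 ± 9.28% after direct CAP for 30 min, with a range of 5.75 to 22.5%, and 17.5 ± 3.58% after direct CAP for 24 h. It made up 12.4 ± 3.93% with indirect CAP from day 1 and 33.7 ± 9.96% with PAM from day 1. From day 2 its share was 23.6 ± 2.13% with indirect CAP and 29.8 ± 9.87% with PAM. The highest share was 45.2% in line 1 with PAM from day 1, where Muc13 stood at 8161, under every untreated library. The summed value per kb was 3616 ± 253 in untreated libraries, 6552 ± 1395 with PAM from day 1 and 7073 ± 2011 with PAM from day 2.

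**Figure D4:**
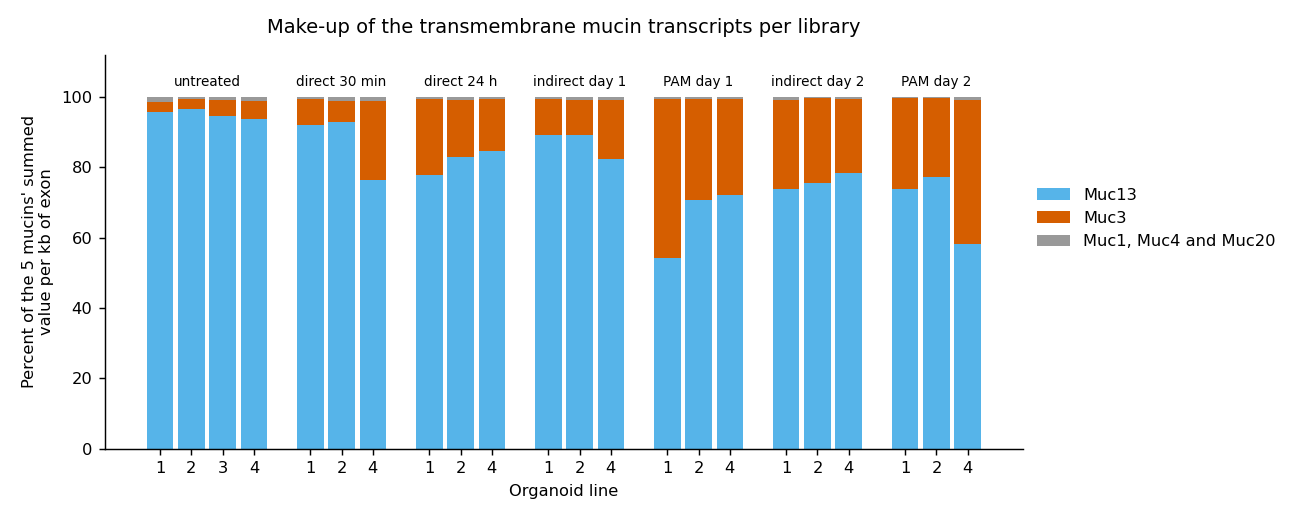
Percent of the 5 members' summed value per kb of exon that is Muc13 (blue), Muc3 (orange) or Muc1, Muc4 and Muc20 together (grey), with 1 stacked bar per library labelled by organoid line. Muc3 is at most 5.08% in the untreated libraries and at least 5.75% in every treated one, and 45.2% at its highest.

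Muc4, a large mucin known to bind the receptor Erbb2, and Muc20, known to bind the receptor Met, are neighbours on chromosome 16. Muc4 lies at chr16:32735886-32782391 on the plus strand and Muc20 at chr16:32777419-32797435 on the minus strand. Their models share 627 exon bases, which is 5.33% of Muc4 and 15.6% of Muc20, and the strand setting of the count is not given in the sources used here, so reads in the shared part cannot be told apart. Muc4 was the gene with the profile most like that of Muc20 over the 22 libraries (mean absolute difference 0.287).

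Muc4 stood at 395, 106, 227 and 293 in untreated lines 1 to 4 (255 ± 121). In lines 1, 2 and 4 it stood at 199, 462 and 398 with PAM from day 1 (353 ± 137), at 35, 178 and 134 with indirect CAP from day 2 (116 ± 73.2) and at 40, 170 and 140 with PAM from day 2 (117 ± 68.1). In both day 2 groups line 1 lay below every untreated library and the other two within the untreated range. The log2 fold changes against untreated were -1.27 (SE 0.60, limma adjusted p = 0.1182) and -1.21 (SE 0.58, adjusted p = 0.1165), and neither passed.

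Between start days, Muc4 with PAM from day 2 lay below PAM from day 1 in every library, as did 16.9% of genes (log2 fold change -1.74, SE 0.58, 95% interval -3.12 to -0.36, limma adjusted p = 0.1203). For indirect CAP, day 2 differed from day 1 by -1.22 (adjusted p = 0.3303). With the line as a block this difference of Muc4 passed (adjusted p = 0.00214), as did 3.46% of genes, compared with 0.0111% without it. Across the 24 h groups from day 1, the difference of Muc4 from untreated was 0.06 (interval -0.79 to 0.90), and its sign turned without untreated line 2, without untreated lines 1 and 2 and without some treated libraries.

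Muc20 was low. It stood at 42, 13, 24 and 38 in untreated lines 1 to 4 (29.3 ± 13.3), at 8, 27 and 17 with indirect CAP from day 2 and at 5, 18 and 13 with PAM from day 2. Its log2 fold changes in these groups were -0.74 (SE 0.50, limma adjusted p = 0.2598) and -1.24 (SE 0.52, adjusted p = 0.08208). In the 4 groups treated at day 1, its means were 22 to 31.7, close to that of the untreated libraries.

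The spread within groups of Muc4, Muc13 and Muc20 followed the organoid line. Among the treated libraries, line 1 was the lowest in 6 of 6 groups for each of these genes. Its mean over the 6 groups was 114 for Muc4, compared with 293 in line 2 and 275 in line 4, 8654 for Muc13, compared with 14116 and 13795, and 12.2 for Muc20, compared with 27.0 and 31.0. Among the untreated libraries, the lowest for each of these genes was the one labelled line 2, with 106, 9887 and 13, and that labelled line 1 was not. This is the same pair of libraries whose labels are in doubt. Muc3 had no such order, with line 1 lowest in 3 groups, line 4 in 2 and line 2 in 1. The share of all genes with line 1 lowest in 6 of 6 groups was not counted. Treated libraries of the same line were alike over all genes (median r = 0.564), so the order is not shown to be particular to these members. Muc4 and Muc20 share exon bases and are not separate cases, and the untreated values of Muc13 lay close together, from 9887 to 11422.

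Muc1, whose cytoplasmic tail is known to take part in signalling, was the lowest member per kb. Its gene lies at chr3:89229057-89233381 on the plus strand. It stood at 5, 8, 9 and 7 in untreated lines 1 to 4 and at 4 to 17 in the 12 libraries treated at day 1. From day 2, lines 1, 2 and 4 stood at 57, 11 and 30 with indirect CAP and at 23, 12 and 118 with PAM, so that all 6 libraries lay above every untreated one. This order of Muc1 had been met by 22.7% of genes with indirect CAP from day 2 and by 20.7% with PAM from day 2.

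The log2 fold changes of Muc1 were 1.78 (SE 0.51) with indirect CAP and 2.04 (SE 0.68) with PAM from day 2. In the comparisons of the day 2 groups, Muc1 passed the filter on low values only through the day 2 libraries, both against untreated and against day 1. These differences are therefore given as values without a test. In the fit of the 24 h groups from day 1 together, Muc1 passed the filter only through the treated libraries of line 4, with 17, 10 and 13. Its difference in that fit is likewise a value without a test. Against day 1, Muc1 was higher with indirect CAP from day 2 by 1.87 (SE 0.60), with no overlap, an order met by 12.1% of genes. With PAM the difference of Muc1 was 1.86 (SE 0.80), and 0.94 without line 4 of the day 2 group. The profile most like that of Muc1 was that of Ctsh, a lysosomal protease (mean absolute difference 0.363), which stood at 2150 in untreated libraries and 8543 with PAM from day 2, followed by Slc5a3 (0.376), an inositol transporter, and Akr1b3 (0.397), the aldose reductase.

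For the other members, the profiles most like Muc13 were those of Itpk1 (mean absolute difference 0.146), 4930551O13Rik (0.154) and Il13ra1 (0.163). The members' own mean absolute deviation was 1.31 for Muc3, 0.83 for Muc1, 0.76 for Muc4, 0.65 for Muc20 and 0.31 for Muc13, so that a small difference is easier to reach for Muc13. For Muc4 the nearest were Cpm (0.429), Gm13571 (0.442) and Clca4b (0.447), and for Muc20, after Muc4, they were Ckap4 (0.325) and Sdsl (0.372).

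Other membrane-anchored mucins and sialomucins differed widely in level. Of 9 listed genes, 6 were in the table under their symbol, and absence of a symbol says nothing of expression. Muc16 and Emcn stood at 0 in every untreated library. In the same libraries Muc15 stood at 3.25 ± 2.06, Podxl at 146 ± 140 and Cd164 at 3914 ± 121. Of 3 tested with PAM from day 1, Parm1 rose (from 947 ± 113 to 2344 ± 327, log2 fold change 1.31, limma adjusted p = 0.0002243), and in the other 5 groups 0 were called. With PAM from day 1 the list's median was 0.34 on the log2 scale, beside -0.13 over all genes, of which 4.83% rose past the threshold.

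Among the enzymes of mucin-type O-glycosylation, which build the sugar chains of all mucins, 5 of 29 tested rose and 0 fell across the 24 h groups from day 1, with a median log2 fold change of 0.28 beside -0.05 over all genes. Of all genes tested in this comparison, 4.27% rose and 2.07% fell. With PAM from day 1, 7 rose and 0 fell, where 4.83% of all genes rose and 5.4% fell. Of these, Gcnt1, a core 2 branching enzyme, stood at 39.0 ± 21.6 in untreated libraries and 383 ± 98.5 with PAM from day 1 (log2 fold change 3.47, limma adjusted p = 0.001338). The sialyltransferases St3gal4 (2.51, adjusted p = 0.00201) and St3gal2 (1.64, 0.009161) and St6galnac4 (1.54, 0.002615) also rose. From day 2 the counts were near or below those over all genes. With indirect CAP 1 of 29 rose and 1 fell, where 6.2% of all genes rose and 5.71% fell. With PAM 1 of 29 rose and 3 fell, where 6.82% of all genes rose and 10.5% fell, with the largest falls in the transferases Galnt5 (from 156 ± 24.0 to 21.3 ± 11.9, log2 fold change -2.99, adjusted p = 0.001052) and Galnt12 (-1.70, 0.001119). St6galnac2 (-1.19, 0.005349) also fell, a symbol that stands on 2 rows, of which 1 was counted, and Galnt3 rose (1.10, 0.005556). In the remaining 3 groups (both direct CAP groups and the day 1 indirect CAP group), 0 of 29 were called.

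Of 12 mucin partners and sheddases, Lgals3, a galectin that binds mucin glycans at the cell surface, rose across the 24 h groups from day 1 (log2 fold change 2.16, limma adjusted p = 0.004483). It stood at 981 ± 565 in untreated libraries, 6373 ± 1846 with PAM from day 1 (2.89, adjusted p = 0.002582), 6985 ± 2524 with indirect CAP from day 2 (2.99, 0.002473) and 10492 ± 7908 with PAM from day 2 (3.40, 0.003235). The protease Adam9 rose with PAM from day 1 (1.2, 0.0008616) and the kinase Src with PAM from day 2 (1.09, 0.001152). No gene of this list fell past the threshold, and the receptors Erbb2, Erbb3, Egfr and Met were not called in any group. Of all genes, 4.27% rose across the 24 h groups from day 1 and 4.83% with PAM from day 1. From day 2, 6.2% rose with indirect CAP and 6.82% with PAM.

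Of 12 genes of the brush border scaffold, Ezr, which encodes ezrin, the link from membrane proteins to actin, and Cdhr2, a protocadherin between microvilli, rose across the 24 h groups from day 1 (log2 fold change 1.09, limma adjusted p = 0.0006507, and 1.07, 0.0006242). Ezr stood at 6643 ± 482 in untreated libraries, 18594 ± 3146 with PAM from day 1 and 14748 ± 1682 with indirect CAP from day 2, and rose in both (1.47 and 1.15). With PAM from day 2, Ezr (1.5), Cdhr2 (1.17) and Cdhr5 (1.16) rose, and 0 fell. Of all genes, 6.82% rose and 10.5% fell in that group, and 4.27% rose across the 24 h groups from day 1. With PAM from day 1, 4.83% of all genes rose, and with indirect CAP from day 2, 6.2%. After direct CAP for 24 h only Cdhr2 was called (1.01, adjusted p = 0.003206), where 1.25% of all genes rose.

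The secreted mucins and goblet cell products did not move as 1 group. With PAM from day 1, Clca1 rose (from 3362 ± 1022 to 14308 ± 6567, log2 fold change 2.03, limma adjusted p = 0.002145). It was the 1 of 14 called, where 10.2% of all genes were called. From day 2, the gel-forming mucin Muc6 rose with indirect CAP (2.23) and with PAM (2.48). Of all genes, 6.2% and 6.82% rose in these groups. Muc5b, also gel-forming, stood at 7.5 ± 2.65 in untreated libraries. From day 2 it stood at 36.3 ± 11.0 with indirect CAP and 42.0 ± 7.81 with PAM (log2 fold changes 2.15 and 2.39). Muc5b passed the filter on low values only through the day 2 libraries, so its differences are given as values without a test. With PAM from day 2, 4 of 13 fell, where 10.5% of all genes fell, with a list median of -1.30 beside -0.12 over all genes. These were Spdef, a regulator of goblet cells (-2.11), Fcgbp (-1.64), Ern2 (-1.43) and Zg16 (-1.30). Muc2 stood at 6815 ± 3569 in untreated libraries and 3449 ± 2236 with PAM from day 2 and was not called. The summed goblet cell markers were 76774 to 134106 in untreated libraries and 18739 to 47886 with PAM from day 2, and their part in these values was not tested.

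**Figure D5:**
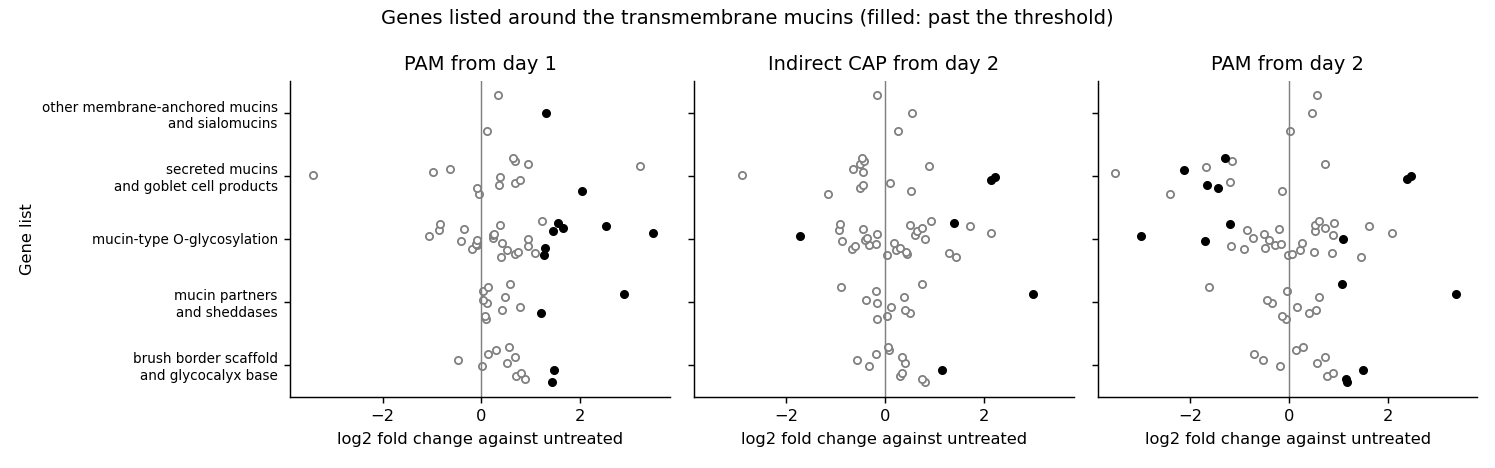
Log2 fold change against untreated of each tested gene of the 5 lists around the transmembrane mucins, for the day 1 PAM, day 2 indirect CAP and day 2 PAM groups, filled where past the threshold. Among O-glycosylation genes 7 rise with PAM from day 1, and with PAM from day 2 4 goblet cell products fall while Lgals3 stands at 3.40. Muc5b is filled from day 2, but passed the filter on low values only through those libraries.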

How the data were processed

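RNA-seq of 22 libraries (7 groups) was analysed from 1 table. The authors trimmed reads with Trimmomatic 0.36, aligned them to GRCm38 with STAR 2.5.3a and counted them on Ensembl genes with HTSeq 0.9.1, per the labels and the study's methods. The deposited values are a score, read here as counts that the authors scaled to 20 M per library and rounded up to whole numbers. This reading, without division by length, was taken from the values themselves, whereas the study's legends give a unit per kilobase of transcript. Since these are not raw counts, the authors' test for counts (edgeR) was not run here.

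Depth was estimated at 19.38 to 28.68 M reads (median 22.55). Of the gene identifiers, 52489 (99.7%) were in GENCODE vM21 on GRCm38, which gave positions and exon lengths. No pair of replicates held identical values (0 pairs). On the log2(value + 1) scale, limma 3.58.1 (trended variance, R 4.3.3) was fitted over genes that reached 10 in 3 or more fitted libraries, with only the groups compared in each fit. Calls needed a p below 0.01 after Benjamini-Hochberg adjustment together with a log2 fold change of 1 or more in size. The p-values measure the spread between organoid lines and, in the fit of the 24 h groups from day 1 together, also differences between their treatments, with each treated line entering 3 times. The fits were tested on simulated data. Samples with the same number come from the same organoid line, hence the same mouse, so the line entered as a block in an alternative (median r of same-line libraries 0.536 over 63 pairs, of different lines -0.306 over 144). Other alternatives were leaving out each library, fitting all 7 groups at once, dropping the filter, quantile normalization, a looser threshold (0.05, any fold change) and a pseudocount of 10. Leaving out untreated lines 1 and 2 was added after values by line were seen.

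The members and gene lists were chosen with earlier results of these data known. Named genes are the 5 members, from each list up to 4 called genes with the largest change, and for each member the 3 genes with the smallest mean absolute difference of centred log2(value + 1) profiles among genes with a mean of at least 50. Figures were drawn with matplotlib 3.10.9 in Python 3.11.15.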

Additional observations from a re-analysis of the deposited data

How the results depend on the processing

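The count of transmembrane mucins past the threshold moved by more than 1.5 times in 11 recomputed counts and stayed within that in 177. With the replicate block (organoid line), it was 1 rather than 0 for indirect CAP from day 1 vs untreated and for PAM from day 1 vs direct CAP for 24 h, and 3 rather than 0 for indirect CAP from day 2 vs day 1 (Muc1, Muc3 and Muc4), where 3.46% of genes were called with the block and 0.0111% without it. The block changed no other call, and against untreated it relies on line labels that are in doubt. At the looser threshold (0.05, any fold change), it was 1 for indirect CAP from day 1 vs untreated and for PAM from day 1 vs direct CAP for 24 h, and 2 (Muc3 and Muc1) rather than 1 for both day 2 groups vs untreated. Muc1 passed the filter on low values only through the day 2 libraries, so its part in these counts is no support. Leaving out 1 library gave 0 to 1 for direct CAP for 24 h vs untreated, and left the count as it was in the other 13 comparisons. Without untreated lines 1 and 2 it was 0 rather than 1 for the 24 h groups from day 1, direct CAP for 24 h and PAM from day 2, each vs untreated, where the untreated arm holds 2 libraries.

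Among the recomputed log2 fold changes of members, 12 turned in sign, 9 came to pass and 4 ceased to pass the threshold, while 418 did neither. The 12 were past no threshold under any setting. For the 24 h groups from day 1 vs untreated, Muc1 was 0.12, -0.17 with quantile normalization and -0.0265 without untreated lines 1 and 2, and ran from -0.0295 to 0.22 when 1 library was left out. Muc1 passed the filter there only through treated libraries, so these are values without a test. In the same comparison the other members were tested. Muc4 was 0.06, -0.11 without both untreated lines, and from -0.31 to 0.32 with 1 library left out, and Muc20 was -0.13, and from -0.4614 to 0.0783. Muc3 with PAM from day 2 vs day 1 was -0.10, and from -0.46 to 0.24. The Muc3 log2 fold change against untreated stayed above 0 in every alternative run, from 3.55 to 4.07 for PAM from day 1 and from 0.55 to 1.90 for direct CAP for 30 min. Quantile normalization moved the median of all genes from -0.12 to 0.00 for PAM from day 2 vs untreated, from -0.14 to -0.02 for PAM from day 1 vs indirect CAP from day 1 and from -0.11 to 0.01 for PAM vs indirect CAP from day 2. The cause of calls that moved with the block or without untreated lines 1 and 2 was not tested. Values near 10, as those of Muc1 and Muc20, are limited by counting error, and 3 lines per group limit the precision of every fold change.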
